A study of Homo sapiens with 32 samples.

Results

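The genes described here are the replication-dependent histone genes, taken as the RefSeq symbols H1-1 to H1-6 and those beginning with H2AC, H2BC, H3C or H4C and a number. The rule gave 84 of the 59778 genes in the RefSeq table used, 70 of them protein-coding, 13 pseudogenes and 1 an antisense lncRNA (H2BC6-AS1). By class they are 6 H1, 22 H2A, 25 H2B, 15 H3 and 16 H4 genes. Most lie in clusters: 66 on chromosome 6, 16 on chromosome 1, and H4C16 and H2BC12L alone on chromosomes 12 and 21. A peak was counted for a gene when its summit lay inside the gene span or within 500 bp of it (hg38), and 42 of the 84 genes had such a peak in at least 1 list. The other 42, among them 12 of the 13 pseudogenes, had none.

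Replication-dependent histone genes supply the core and linker histones that package newly made DNA. They lack introns as a rule, are transcribed mainly in S phase at the histone locus body, and end their mRNAs in a conserved stem-loop, bound by SLBP, instead of a poly(A) tail. Some of them also have longer, polyadenylated transcripts that run past the stem-loop. The mark measured here, N6-methyladenosine (m6A), is placed on nuclear RNA mainly by the complex whose catalytic subunit is METTL3.

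The study, by its title, concerns CENPA and m6A on centromeric RNA. It enriched m6A-bearing fragments of chromatin-associated RNA with an antibody and sequenced them (MeRIP-seq), after removal of ribosomal RNA. Of its 32 samples, 4 m6A-enriched libraries are described, all from A375, an established human melanoma cell line. There were 2 libraries of cells with a hairpin RNA against METTL3 (shMETTL3, genotype given as METTL3 knockdown) and 2 of cells with a control hairpin (shControl, genotype given as WT). Nothing in the labels says that replicates were separate cultures, so their spread may be technical; the hairpin sequence and the number of clones are not given in the sources used here.

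Each library is represented by its deposited list of 42969 to 47692 peaks, and the read depth behind a list is unknown. METTL3 itself carried 5 peaks in each of the 4 lists, which do not measure its RNA level. Of 8 melanocyte lineage markers, MITF and PMEL had peaks in all 4 lists and SOX10, MLANA, TYR, TYRP1, DCT and S100B had none. Of 5 keratinocyte markers KRT10 had a peak in both shMETTL3 lists and neither shControl list, and none of 5 leukocyte markers had a peak.

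Histone genes carried more peaks in the shMETTL3 lists. There were 47 and 48 histone peaks in shMETTL3 replicates 1 and 2, against 27 and 26 in shControl replicates 1 and 2, a mean of 47.5 ± 0.707 against 26.5 ± 0.707 (SD, n = 2 each). They fell on 36 and 40 genes in the shMETTL3 lists and on 23 and 22 in the shControl lists. The groups did not overlap in either count, and the exact two-sided permutation test gave p = 0.333 for both, the smallest p that 2 against 2 libraries allow. Histone peaks made up 0.107% and 0.112% of the shMETTL3 lists and 0.0595% and 0.0545% of the shControl lists. Summits inside histone genes of known strand numbered 43 and 42 in the shMETTL3 lists and 21 and 20 in the shControl lists. In other protein-coding genes of at most 3000 bp they numbered 459 and 473 against 386 and 398. A higher count without overlap is thus not particular to histone genes. Peak lists carry no amount of RNA: more m6A per transcript, more histone RNA per cell and more cells making histone RNA cannot be told apart here.

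By gene, 11 of the 42 histone genes with a peak (26.2%) had one in both shMETTL3 lists and in neither shControl list. Over all 15314 genes with a peak in any list this pattern held for 6.53%, and over 453 other protein-coding genes of at most 3000 bp for 10.8%. The reverse pattern held for 1 histone gene, H3C6 (2.38%), against 6.11% of all genes and 6.18% of the short genes. Another 17 histone genes had a peak in all 4 lists, and 13 had some other pattern. The members of the family are near-identical in parts and neighbours can share a peak, so they are not independent and no test was made of these shares. With a fold enrichment of at least 4 required, the histone peaks came down to 5 and 6 in the shMETTL3 lists and 4 and 4 in the shControl lists, and 3 genes had peaks in the shMETTL3 lists only against 2 in the shControl lists only.

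The same was counted by locus, which merges peaks of 1 strand that share at least 1 bp. Of 57 histone loci, 19 (33.3%) were in both shMETTL3 lists and no shControl list, against 9.46% of all loci, and 3 (5.26%) were in both shControl lists only, against 12.5% of all loci. A further 16 were in all 4 lists. The 3 loci of the shControl lists lay at H2BC18, H3C6 and H4C16.

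**Figure D1:**
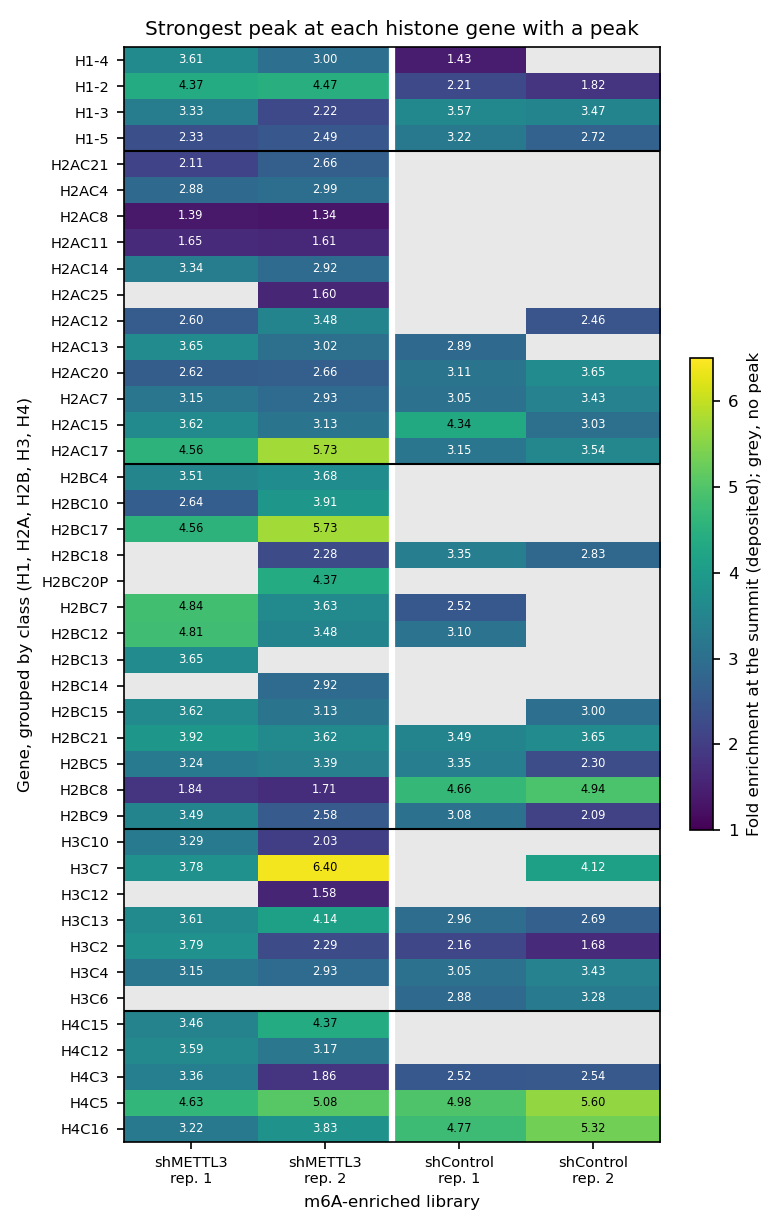
Deposited fold enrichment of the strongest peak (colour and number) at each of the 42 histone genes with a peak, in the 2 shMETTL3 libraries (left) and the 2 shControl libraries (right), with genes grouped by class and grey where a list has no peak. Grey is more frequent in the shControl libraries, where 23 and 22 genes have a peak, against 36 and 40 in the shMETTL3 libraries.

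Histone peaks were weak in fold within their own lists. Their median fold enrichment was 3.23 and 2.87 in the shMETTL3 lists, where all peaks had medians of 3.92 and 3.93, and 3.08 and 2.82 in the shControl lists, where all peaks had 3.84 and 3.65. Only 6 and 6 histone peaks of the shMETTL3 lists and 4 and 6 of the shControl lists exceeded the median fold of their list. Fold enrichment is the peak caller's value, given by the authors, and serves to describe peaks within a list. Folds of different lists are set side by side without a test, because their common scale is not known. The medians of the whole lists also do not overlap between the groups. Where the folds of a gene are said below to overlap or not, this is a description, without a share over all genes beside it. By −log10 q the histone peaks stood nearer to the middle, with medians of 32.1 and 25.98 in the shMETTL3 lists (29.4 and 29.5 over all peaks) and 24.6 and 21.999 in the shControl lists (29.3 and 30.2 over all peaks).

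The upstream sequence of histone genes carries short elements, some of them more frequent in certain classes. They are shown here because peaks of neighbours that share a promoter region are compared further on. In the RefSeq promoter table (GRCh38.p14, 250 bases before and 50 after each gene start), 65 members had a window. The letters TATAAA, the core of the TATA box, were found on either strand in 42 of the 65 (64.6%), against 11.95% of all 27305 promoter windows. CCAAT, the CCAAT box, was found in 54 (83.1%), against 35.7%. The octamer ATTTGCAT, bound by POU2F1 at H2B genes, was found in 26 (40%), against 1.80%. No motif contains another. H2A and H2B neighbours whose starts face away from each other have 193 to 247 bases between them. Their windows overlap, so 1 copy of a motif on either strand can count for both genes. The octamer stood in 14 of 19 H2B and 11 of 16 H2A windows, in 1 of 11 H3 windows and in none of the 6 H1 or 13 H4 windows. TATAAA stood in 50% to 75% of the windows of every class. CCAAT stood in 94.7% to 100% of the H1, H2A, H2B and H3 windows and in 3 of 13 H4 windows. Of the 11 genes with peaks in the shMETTL3 lists only, 8 had the octamer and 9 had TATAAA, and of the 16 windows of genes with peaks in all 4 lists 7 and 9 did. Of the 27 windows of genes without a peak 7 and 17 did, and of the 10 windows of genes with some other pattern 4 and 6 did. As 8 of those 11 genes are H2A or H2B genes, class and motif move together, and their parts were not tested.

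The 250 bases before the start of 4 genes follow, 5′ to 3′ on the strand of the gene, with these motifs on either strand in capitals. H2BC17 (chr6:27893175-27893424, plus strand), H3C10 (chr6:27809801-27810050, plus strand) and H4C12 (chr6:27831561-27831810, minus strand) had peaks in the shMETTL3 lists only, and H4C5 (chr6:26204360-26204609, plus strand) had a peak in all 4 lists. The H2BC17 sequence also spans the 239 bases between this gene and its divergent neighbour H2AC17. The TATAAA of this stretch is read on the opposite strand, which is that of H2AC17, and begins 214 bases before the H2BC17 start.
H2BC17: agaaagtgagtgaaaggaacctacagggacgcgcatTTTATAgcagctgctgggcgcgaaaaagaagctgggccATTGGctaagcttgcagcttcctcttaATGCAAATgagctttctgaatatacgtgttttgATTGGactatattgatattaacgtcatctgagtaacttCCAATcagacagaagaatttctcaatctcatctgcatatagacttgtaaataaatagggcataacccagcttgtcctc
H3C10: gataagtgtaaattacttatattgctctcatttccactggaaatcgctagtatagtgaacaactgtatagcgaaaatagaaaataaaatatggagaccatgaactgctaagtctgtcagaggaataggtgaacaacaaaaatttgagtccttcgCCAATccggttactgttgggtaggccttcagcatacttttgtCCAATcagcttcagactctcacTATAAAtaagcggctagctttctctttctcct
H4C12: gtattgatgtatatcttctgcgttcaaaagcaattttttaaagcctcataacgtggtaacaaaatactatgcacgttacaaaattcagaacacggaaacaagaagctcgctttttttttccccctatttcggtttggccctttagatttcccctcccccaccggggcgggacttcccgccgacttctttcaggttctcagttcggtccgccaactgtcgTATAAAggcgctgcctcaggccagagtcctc
H4C5: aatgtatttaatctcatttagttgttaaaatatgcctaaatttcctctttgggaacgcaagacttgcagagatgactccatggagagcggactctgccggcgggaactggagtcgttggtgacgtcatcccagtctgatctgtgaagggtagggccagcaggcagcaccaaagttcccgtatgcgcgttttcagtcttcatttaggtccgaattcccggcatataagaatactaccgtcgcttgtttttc
TATAAA begins 32 bases before the H3C10 start and 31 before the H4C12 start, and no letters of the 3 motifs are in the H4C5 stretch shown.

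H1 genes, which encode the linker histones that bind DNA between nucleosomes, mostly had peaks in both groups. H1-2, H1-3 and H1-5 had peaks in all 4 lists, and H1-4 in all but shControl replicate 2. H1-1 and the testis gene H1-6 had none. The sense peak of H1-2 had folds of 2.61 and 1.58 in the shMETTL3 lists and 2.21 and 1.82 in the shControl lists. H1-5 had a single peak of 764 to 767 bp over nearly the whole gene in every list, with folds of 2.33 and 2.49 in the shMETTL3 lists and 3.22 and 2.72 in the shControl lists. For H1-5 both shMETTL3 values lay under both shControl values, while for H1-2 the groups overlapped. The H1-5 folds were read at different places, as the summits lay 474 and 476 bp from the start in the shMETTL3 lists. In the shControl lists they lay 672 and 697 bp from it. H1-3 had a second peak near its start, with the summit 76 to 80 bp inside the gene, in shMETTL3 replicate 1 (fold 3.33) and in shControl replicates 1 and 2 (3.57 and 3.47).

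H2A genes, which encode a core histone that pairs with H2B, showed the widest difference in number of the 5 classes, counted with the 500 bp flank. Peaks at H2A genes numbered 18 and 18 in the shMETTL3 lists and 5 and 6 in the shControl lists, on 11 and 12 genes against 5 and 5 (exact permutation p = 0.333). A peak near 2 or more genes counted for each of them, so the H2A total includes peaks of H2B neighbours, and the H2B total the reverse. Over all classes, such shared peaks numbered 9 and 10 in the shMETTL3 lists and 3 and 3 in the shControl lists. Their part in the H2A difference was not tested. H2AC4, H2AC8, H2AC11, H2AC14 and H2AC21 had peaks in the shMETTL3 lists only. Their folds were low: H2AC4 reached 2.88 and 2.99, H2AC11 1.65 and 1.61, and H2AC8 1.39 and 1.34. H2AC14 had 2 peaks in each shMETTL3 list, 1 on its own strand with folds of 1.79 and 1.78 and 1 on the opposite strand with 3.34 and 2.92. The H2AC21 peak, with folds of 2.11 and 2.66, lay on the strand of its neighbour H2AC20 and inside that gene, and was counted for H2AC21 only through the 500 bp flank. H2AC20 itself counts among the genes with peaks in all 4 lists through a peak of H2BC21 on the opposite strand, while its own sense peak was in the shMETTL3 lists only.

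H2AC7, H2AC15, H2AC17 and H2AC20 were the H2A genes with peaks in all 4 lists. H2AC7 had folds of 3.15 and 2.93 in the shMETTL3 lists and 3.05 and 3.43 in the shControl lists, so the groups overlapped. H2AC17 had sense folds of 2.82 and 2.72 in the shMETTL3 lists and 3.15 and 3.54 in the shControl lists, with both shMETTL3 values below. H2AC15 had a peak past its end in every list, with the summit 202 to 204 bp beyond the annotated end and folds of 2.73 and 2.50 in the shMETTL3 lists and 4.34 and 3.03 in the shControl lists. Its peak inside the gene was in both shMETTL3 lists (3.18 and 2.46) and in shControl replicate 2 (3.005).

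H2B genes, encoding the partner of H2A, had 19 and 20 peaks in the shMETTL3 lists and 11 and 10 in the shControl lists (exact permutation p = 0.333). H2BC4, H2BC10 and H2BC17 had peaks in the shMETTL3 lists only. H2BC10 had folds of 2.64 and 3.91 and its summit 314 and 316 bp from the start. H2BC4 had folds of 3.51 and 3.68, with the summit 8869 and 8873 bp from the start of its 10757 bp span, which is far longer than a histone coding sequence. H2BC17 had a peak inside the gene with folds of 2.49 and 2.198 and a stronger one before its start that lies inside H2AC17.

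H2BC5, H2BC8, H2BC9 and H2BC21 had peaks in all 4 lists. H2BC5 had folds of 3.24 and 3.39 in the shMETTL3 lists and 3.35 and 2.30 in the shControl lists, and H2BC9 had 3.49 and 2.58 in the shMETTL3 lists and 3.08 and 2.09 in the shControl lists. In both genes the groups overlapped. H2BC21 had 4 and 3 peaks in the shMETTL3 lists and 2 and 2 in the shControl lists, with strongest folds of 3.92 and 3.62 against 3.49 and 3.65. H2BC8 had peaks inside the gene and past its end. Inside, it had a peak in the shMETTL3 lists only, with folds of 1.84 and 1.71 and the summit 311 bp from the start in both. Past the end all 4 lists had a peak at an overlapping place, with folds of 1.88 and 1.71 and summits 548 and 553 bp beyond the end in the shMETTL3 lists, against 4.66 and 4.94 and summits 445 and 484 bp beyond it in the shControl lists. The 500 bp window left the past-end summits of the shMETTL3 lists out. H2BC7 had folds of 4.84 and 3.63 in the shMETTL3 lists and 2.52 in shControl replicate 1 alone of the shControl lists. H2BC18 had 3 peaks in each shControl list and 1 in shMETTL3 replicate 2 (fold 2.28). Inside the gene the shControl lists had 2 and 2. Their other peak lay before its start, in a locus shared with H3C13 that was in all 4 lists.

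H3 genes, whose protein carries many of the best known histone tail marks, differed little in number. They had 5 and 6 peaks in the shMETTL3 lists and 5 and 5 in the shControl lists (exact permutation p = 1). H3C2, H3C4 and H3C13 had peaks in all 4 lists, but the H3C4 peak lies in H2AC7, which the H3C4 span contains. H3C2 had folds of 3.79 and 2.29 in the shMETTL3 lists and 2.16 and 1.68 in the shControl lists, and H3C13 had 3.61 and 4.14 in the shMETTL3 lists and 2.96 and 2.69 in the shControl lists. In both genes the shMETTL3 values were the higher ones. The H3C2 summit of shMETTL3 replicate 1 lay 149 bp from the gene start, however, and those of the other lists 343 to 346 bp from it. H3C10, whose upstream sequence is printed above, had folds of 3.29 and 2.03 in the shMETTL3 lists and no peak in the shControl lists. H3C7 had the highest fold of any histone peak, 6.40 in shMETTL3 replicate 2, beside 3.78 in shMETTL3 replicate 1 and 4.12 in shControl replicate 2. The peak of H3C6, in the shControl lists only with folds of 2.88 and 3.28, lay on the strand opposite to the gene with the summit 1761 and 1763 bp from its start.

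H4 genes, whose protein is the most conserved of the core histones, had 6 and 7 peaks in the shMETTL3 lists and 4 and 4 in the shControl lists (exact permutation p = 0.333). H4C5 had one of the strongest histone peaks of every list, with folds of 4.63 and 5.08 in the shMETTL3 lists and 4.98 and 5.60 in the shControl lists, and the groups overlapped. H4C3 had 3.36 and 1.86 in the shMETTL3 lists and 2.52 and 2.54 in the shControl lists, also with overlap. H4C16, which lies alone on chromosome 12, had 3.22 and 3.83 in the shMETTL3 lists and 4.77 and 5.32 in the shControl lists, and a second peak 306 and 308 bp past its end in the shControl lists only (folds of 3.70 and 3.69). Both shMETTL3 values of H4C16 lay under both shControl values, but the summits lay at different places. They were 95 and 283 bp from the start in the shMETTL3 lists and 364 and 319 bp in the shControl lists. H4C12, with TATAAA in the upstream sequence printed above, had folds of 3.59 and 3.17 in the shMETTL3 lists and no peak in the shControl lists. H4C15 had 2 and 3 peaks in the shMETTL3 lists and none in the shControl lists, with summits 11164 to 12667 bp from the start of its 16753 bp span. Without the peaks of H4C15, the H4 peaks were equal in number in all 4 lists. The other 11 H4 genes had no peak.

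Every cluster with a peak in both groups had more marked genes in the shMETTL3 lists. On chromosome 6 the members fall into a block of 43 at 25726063 to 26322292 (block A), one of 5 at 27132316 to 27147562 (block B) and one of 18 at 27807167 to 27893891 (block C). Block A had peaks at 17 and 17 genes in the shMETTL3 lists and 13 and 12 in the shControl lists, and block B at 3 and 3 against 1 and 1. Block C had peaks at 10 and 11 genes in the shMETTL3 lists and 4 and 4 in the shControl lists. The cluster on chromosome 1 at 149782689 to 149887965, with 13 members, had peaks at 5 and 7 genes in the shMETTL3 lists and 4 and 4 in the shControl lists. Each of these 4 comparisons gave an exact permutation p of 0.333. The small cluster of 3 at 228457364 to 228464575 had only H2AC25, in shMETTL3 replicate 2 (fold 1.60).

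Peaks elsewhere in the same chromosome 6 blocks, outside the windows of the histone genes, numbered 9 and 12 in the shMETTL3 lists and 7 and 7 in the shControl lists, beside 38 and 37 against 19 and 18 at the histone genes. Of the 23 other genes lying within block A, 4 had a peak, 2 of them in all 4 lists and none in 1 group only.

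**Figure D2:**
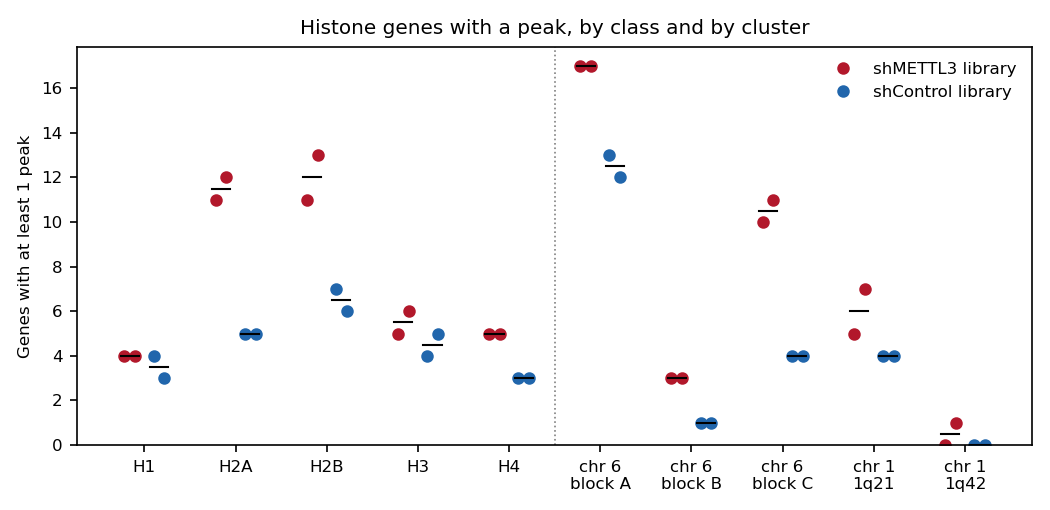
Number of histone genes with at least 1 peak in each library, by histone class (left of the dotted line) and by cluster (right), with shMETTL3 libraries in red, shControl libraries in blue and a bar at the mean of each pair. The H2A class (11 and 12 against 5 and 5) and chromosome 6 block C (10 and 11 against 4 and 4) stand furthest apart.

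Of 79 sense summits in short histone genes, the strongest of each gene in each list, 48 lay between 280 and 400 bp from the gene start. A gene counts up to 4 times here, and no share in other short genes is given. In genes with a span of at most 1000 bp, the strongest sense summit lay a median of 323 bp from the gene start in the shMETTL3 lists (53 summits in 27 genes) and 348 bp in the shControl lists (26 summits in 16 genes). Distances varied within a class: H4 summits ranged over 95 to 364 bp, with H4C5 at 192 to 202 bp and H4C12 at 349 and 362 bp, and H2B summits over 99 to 370 bp. H2A summits were closer together, at 265 to 407 bp. H3 summits ranged over 83 to 368 bp, but their quartiles were 344 and 352 bp. H2B summits had medians of 242.5 bp in the shMETTL3 lists and 303 bp in the shControl lists, from 6 and 3 genes. In H3 genes 11 of 13 summits, from 4 genes, lay between 280 and 400 bp, with a median of 350 bp in both groups. In H2A genes 21 of 25 summits, from 10 genes, did, with medians of 341 bp in the shMETTL3 lists and 326 bp in the shControl lists. Of 10 genes with a sense summit in all 4 lists, 3 had it within 10 bp: H2AC7 at 297 to 299 bp, H3C13 at 350 to 359 bp and H4C5 at 192 to 202 bp. The largest range was 380 bp, in H1-3, whose peak near the start was missing from shMETTL3 replicate 2. Copies share sequence, and no source used here says how reads that match several copies were placed, so the assignment of a peak to 1 copy is uncertain.

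**Figure D3:**
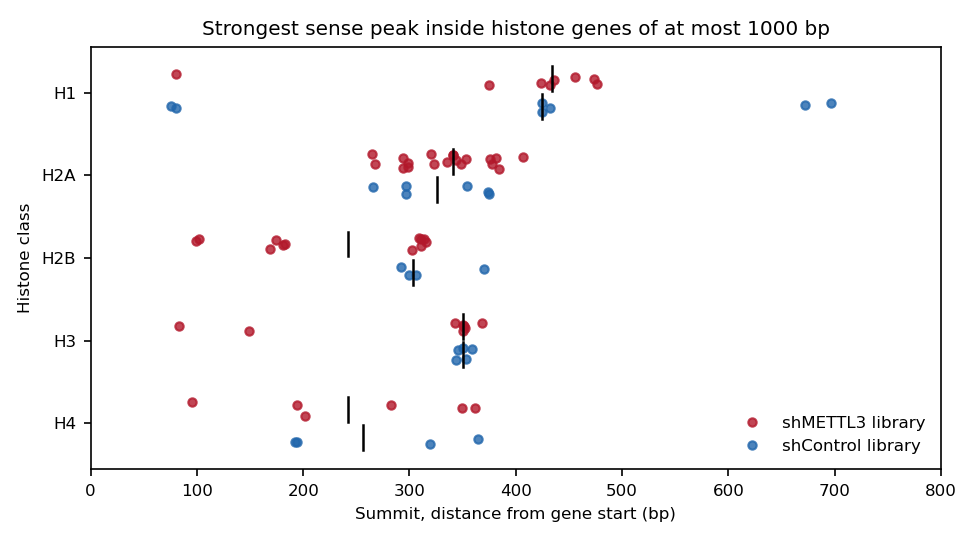
Distance in bp from the gene start to the summit of the strongest sense peak inside each histone gene of at most 1000 bp, by class, for shMETTL3 libraries (red) and shControl libraries (blue), with a black bar at the median of each group. H3 summits centre on 350 bp in both groups, and H1 summits lie further in by bp, at medians of 434 bp in the shMETTL3 lists and 425 bp in the shControl lists. The H1 genes shown are also longer, at 731 to 797 bp. As a share of gene length the H1 medians are 56.7% and 58.1%, against 63.6% and 66.1% over all classes.

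Counting only summits inside the gene and on its own strand, 34 genes had a peak, 12 of them in the shMETTL3 lists only, 13 in all 4 lists and none in the shControl lists only. By the same rule 6.04% of 9473 genes of known strand had such a peak in the shMETTL3 lists only and 5.01% in the shControl lists only. Such peaks numbered 38 and 37 in the shMETTL3 lists and 20 and 19 in the shControl lists. Sense summits within 500 bp past the gene end numbered 1 and 1 in the shMETTL3 lists and 5 and 3 in the shControl lists, at H2AC15, H2BC8, H3C13 and H4C16. They were 2.56% and 2.63% of the sense summits inside or past the end in the shMETTL3 lists and 20% and 13.6% in the shControl lists. In other protein-coding genes of at most 3000 bp these shares were 1.68% and 2.13% in the shMETTL3 lists and 5.23% and 5.39% in the shControl lists. Within 1000 bp, a window chosen after the values were seen, the histone counts were 4 and 4 in the shMETTL3 lists and 5 and 4 in the shControl lists, which overlap. The shares did not overlap, at 9.52% and 9.76% in the shMETTL3 lists and 20% and 17.4% in the shControl lists. In the other short protein-coding genes they were 2.84% and 3.73% against 8.51% and 8.59%. In the members with spans over 2000 bp, whose RefSeq models run beyond the histone coding part, sense summits over 1000 bp from the start numbered 7 and 6 in the shMETTL3 lists and 0 and 0 in the shControl lists, while those within 1000 bp of the start numbered 5 and 5 against 7 and 6. The distant ones lay in H2BC4, H2BC12, H2BC21 and H4C15. They were 58.3% and 54.5% of the sense summits inside these long members in the shMETTL3 lists and 0% in both shControl lists. In other genes with spans in the same range the shares were 84.4% and 85.3% in the shMETTL3 lists and 85.7% and 85.9% in the shControl lists.

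Peaks on the strand opposite to a histone gene, inside its span, numbered 5 and 5 in the shMETTL3 lists and 1 and 1 in the shControl lists (exact permutation p = 0.333). As a share of the summits inside genes of known strand they were 11.6% and 11.9% in the shMETTL3 lists and 4.76% and 5% in the shControl lists. Over all genes the shares were 3.24% and 3.33% in the shMETTL3 lists and 3.17% and 3.27% in the shControl lists, and over the other protein-coding genes of at most 3000 bp 11.5% and 13.3% against 11.7% and 12.6%. H1-2, H1-4, H2AC14 and H2AC17 had such a peak in both shMETTL3 lists and neither shControl list, 4 of the 7 histone genes with an antisense peak, beside 14.1% of the 1042 genes of the whole table with one. H3C6 had the reverse, 1 of 7 beside 14.2% of all such genes. The antisense peak of H2AC17 had folds of 4.56 and 5.73, that of H1-2 4.37 and 4.47, and that of H1-4 3.61 and 3.001. In these 3 genes the antisense fold was above that of the sense peak in both shMETTL3 lists, where the sense folds were 2.82 and 2.72 for H2AC17, 2.61 and 1.58 for H1-2, and 1.501 and 1.44 for H1-4.

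**Figure D4:**
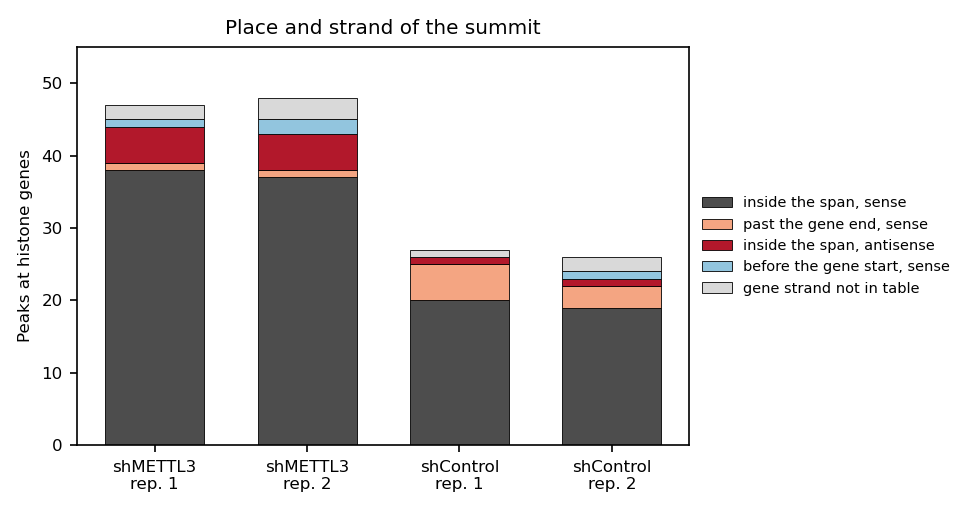
Number of histone peaks in each library by the place and strand of the summit relative to the gene, stacked, with the 2 shMETTL3 libraries left of the 2 shControl libraries. Sense summits inside the gene number 38 and 37 in the shMETTL3 libraries and 20 and 19 in the shControl libraries; sense summits within 500 bp past the gene end number 1 and 1 in the shMETTL3 libraries and 5 and 3 in the shControl libraries.

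Many H2A and H2B genes stand back to back and share the DNA between their starts. The strands of 11 such pairs were known, with 193 to 247 bases between the genes. Both genes of a pair had a sense peak inside in 5 and 5 pairs in the shMETTL3 lists and in 1 and 1 in the shControl lists, and at least 1 gene did in 9 and 10 pairs against 4 and 4. As shares, both genes had a peak in 45.5% of the pairs in each shMETTL3 list and 9.09% in each shControl list. Over 1934 other divergent pairs at most 500 bp apart, both genes had one in 23.7% and 22.9% of pairs in the shMETTL3 lists and 23.7% and 24.6% in the shControl lists. At least 1 gene had one in 81.8% and 90.9% of the histone pairs in the shMETTL3 lists and 36.4% in each shControl list. In the other pairs these shares were 70.6% and 70.4% in the shMETTL3 lists and 70.4% and 70.3% in the shControl lists. H2AC17 and H2BC17, whose shared region is printed above, were such a pair: the sense peak of H2AC17 was in all 4 lists and that of H2BC17 in the shMETTL3 lists only. H2BC8 and H2AC8 both had their sense peak inside in the shMETTL3 lists only. In the pair H2BC4 and H2AC6 only H2BC4 had a peak, and H2AC1 and H2BC1 had none.

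Genes of the machinery that makes, processes and destroys histone mRNA had similar numbers of peaks in both groups. Of 18 such factors 14 had a peak, 12 of them in all 4 lists, and none had peaks in 1 group only by the rule used above. Their peaks numbered 46 and 50 in the shMETTL3 lists and 46 and 46 in the shControl lists. NPAT, the cyclin E-CDK2 substrate that activates histone genes, had 6 and 7 peaks in the shMETTL3 lists and 5 and 5 in the shControl lists. SYMPK, the symplekin scaffold of the cleavage complex, had 9 and 8 in the shMETTL3 lists and 7 and 4 in the shControl lists, and UPF1, a helicase of histone mRNA decay, had 8 and 8 against 10 and 13. SLBP, the stem-loop binding protein, had 2 and 3 peaks in the shMETTL3 lists and 1 and 0 in the shControl lists. CPSF3, the nuclease that cuts histone pre-mRNA, had 1 and 0 peaks in the shMETTL3 lists and 5 and 4 in the shControl lists.

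Among 13 histone variant genes that are expressed outside S phase, 7 had a peak, 4 in all 4 lists and 3 in the shMETTL3 lists only, beside 6.53% of all genes with a peak. The last were H2AZ2, with folds of 2.204 and 2.76, H3-3B, which encodes H3.3, with 2.67 and 2.21, and CENPA, the centromeric H3 variant, with 2.88 and 3.54. The variants together had 11 and 10 peaks in the shMETTL3 lists and 9 and 13 in the shControl lists, which overlap.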

How the data were processed

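m6A-enriched RNA of 4 A375 libraries was analysed from the peak lists that the authors deposited, one list per library in narrowPeak format. The submitters' processing notes list hg38 and the tools MACS2 2.2.7.1, HISAT2 2.1.0, Bowtie2 2.4.2, SAMtools and Trim Galore 0.6.6 without their roles. No source used here says whether input or spike-in entered the calls, or how reads that match several copies were handled. The names of the deposited peaks carry a strand, so calls were made by strand, and those of the knockdown lists say knockout where the labels say knockdown. Fold enrichment at the summit was deposited as a ratio, p-values and q-values as −log10 values (smallest −log10 q 2.00), and the deposited score, which repeats the q-value, was not used. Folds describe peaks within a list and, with 1 threshold common to all lists, filter them.

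Summits were matched to RefSeq gene spans (GRCh38.p14) with a 500 bp flank, and strand came from the RefSeq promoter table, which held 65 of the 84 members. Counts per library were compared with exact two-sided permutation tests of 2 against 2. A gene was called for a group with a peak in both of its lists and in neither list of the other. The calling was tested on made-up peaks. The members and gene lists were chosen with earlier results of these data known. By rule, genes with peaks in 1 group only or in all 4 lists are named, in a class with over 6 of them the 4 with the highest folds. The rest of these in H2A and H2B, and genes of other patterns (H1-4, H2AC25, H2BC7, H2BC18, H3C7, SLBP and CPSF3 among them), were named after their values were seen. The alternatives are fold and q thresholds, equal list lengths, flanks, assignment to the nearest member, gene strand, left-out replicates, replicate pairs and, for loci, reciprocal overlap. Python 3.11.15 with pandas 2.3.3 was used.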

Additional observations from a re-analysis of the deposited data

How the results depend on the processing

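The shMETTL3 lists held more histone peaks and more histone genes with a peak under every alternative run. The difference of 21 peaks ranged from 20.5 to 21.5 with 1 replicate left out and that of 15.5 genes from 13.5 to 17.5; a fold of at least 4 reduced them to 1.5 peaks and 3 genes, for which the cause was not tested. With replicate numbers as pairs (replicate block) the differences were the same 21 and 15.5, with an exact sign-flip p of 0.5, the smallest for 2 pairs. The 11 genes with peaks in the shMETTL3 lists only became 3 with a fold of at least 4, of which 1 was among the 11, and 9 to 13 under the other settings with all libraries; a −log10 q of at least 20 gave 12, of which 5 were among the 11. Leaving out 1 replicate gave 12 to 15. All 11 were included, which the rule fixes, because a call with fewer lists to meet cannot lose a gene. The single gene with peaks in the shControl lists only became 2 with a fold of at least 4, 3 with a −log10 q of at least 20, and 0 on the gene's strand, with members of at most 1000 bp or with the summit inside on the gene's strand; it was 1 to 2 with a replicate left out. By locus, 50% reciprocal overlap gave 19 and 4. Restricting members to protein-coding genes, to short spans or to inside sense summits was chosen after seeing the data. For the 12 genes with peaks in 1 group only, no direction reversed in 165 gene and setting pairs, and 20 had no difference left. All settings but the 1000 bp flank only remove peaks, members or lists, so they could not have reversed a direction. The 17 genes with peaks in all 4 lists have no direction of their own: of their 233 pairs, 20 had peaks in more shMETTL3 lists and 6 in more shControl lists, and H2BC8 and H2AC15 went both ways with the setting. Read depth is unknown, so a missing peak is not an absence of m6A.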
